A study of Mus musculus with 8 samples.

Results

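The genes described here are 10 transporters, carbonic anhydrases and proton pump subunits of renal acid-base handling, taken by symbol from the 32285 features of a single-nucleus RNA-seq dataset of the mouse kidney: *Slc4a1*, *Slc4a4*, *Slc4a9*, *Slc26a4*, *Car2*, *Car4*, *Car12*, *Atp6v1b1*, *Atp6v0d2* and *Atp6v0a4*. Each symbol matched 1 feature, and all 10 are annotated as protein coding. The dataset comprised 8 libraries, each from a kidney of 1 male mouse on the C57BL/6J background. Control mice (Ctrl) carried the floxed *Bmal1* alleles alone (Bmal1lox/lox), and cKOt mice carried in addition Pax8-rtTA, which drives the doxycycline-dependent activator in renal tubule cells, and the Cre transgene LC-1 (Bmal1lox/lox/Pax8-rtTA/LC-1). Mice of both genotypes had received doxycycline (2 mg/ml, with 20 mg/ml sucrose) for 2 weeks from 8 weeks of age, so that the treatment was shared by the control mice. Kidneys were collected at ZT4, in the light phase, or at ZT16, in the dark phase, with 2 mice for each genotype and time point. The comparison asked where along the nephron each acid-base gene was expressed, and whether its level depended on the time of day or on the tubular clock.

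The kidney keeps blood pH stable by reclaiming filtered bicarbonate and by secreting acid or base as needed. Cells of the proximal tubule take up most filtered bicarbonate: carbonic anhydrases interconvert CO2 and bicarbonate at the brush border and in the cytosol, and the cotransporter NBCe1, encoded by *Slc4a4*, passes bicarbonate with sodium to the blood side. Intercalated cells of the connecting tubule and collecting duct make the final adjustment. The alpha type secretes protons into the urine with a vacuolar H+-ATPase (V-ATPase) and returns bicarbonate to the blood through AE1, the product of *Slc4a1*, whereas the beta type secretes bicarbonate through pendrin, the product of *Slc26a4*, and carries AE4, the product of *Slc4a9*, on its basolateral side. BMAL1 (gene *Arntl*) is a core activator of the circadian clock and binds E-box motifs together with CLOCK.

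For a view of the regulatory sequence near these genes, promoter windows of RefSeq (GRCm38.p6) were searched, each with 250 bases before and 50 after the transcript start. Of the 10 genes, 6 had an entry, with 7 windows in all. *Slc4a1*, *Slc4a9*, *Car2* and *Atp6v0d2* had no entry and were not searched. The sequences are the 250 bases before the start of *Slc26a4* (chr12:31559985-31560234, minus strand), the gene with the most exclusive level in beta-intercalated nuclei, and of *Atp6v1b1* (chr6:83742767-83743016, plus strand) and *Car12* (chr9:66713436-66713685, plus strand), which held a forkhead core. Capitals mark that motif, TGTTTA, searched on both strands.
Slc26a4: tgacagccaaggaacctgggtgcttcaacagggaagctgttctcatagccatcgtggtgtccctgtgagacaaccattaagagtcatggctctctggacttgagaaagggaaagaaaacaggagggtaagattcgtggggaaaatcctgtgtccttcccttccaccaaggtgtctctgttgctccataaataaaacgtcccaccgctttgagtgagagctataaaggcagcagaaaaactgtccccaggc
Atp6v1b1: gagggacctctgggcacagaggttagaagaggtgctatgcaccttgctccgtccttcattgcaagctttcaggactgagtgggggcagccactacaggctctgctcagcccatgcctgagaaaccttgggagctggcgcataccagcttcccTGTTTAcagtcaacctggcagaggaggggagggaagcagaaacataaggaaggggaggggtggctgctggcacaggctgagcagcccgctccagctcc
Car12: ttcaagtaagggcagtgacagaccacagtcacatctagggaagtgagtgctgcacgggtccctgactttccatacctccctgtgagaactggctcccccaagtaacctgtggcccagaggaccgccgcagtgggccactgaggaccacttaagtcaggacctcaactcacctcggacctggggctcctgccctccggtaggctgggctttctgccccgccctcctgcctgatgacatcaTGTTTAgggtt
The forkhead core began 98 bases before the start of *Atp6v1b1* and 11 bases before that of *Car12*. It was present in 13.4% of all 32851 promoter windows of the same length. The E-box CACGTG, which reads the same on both strands, was found in 0 of the 7 windows, against 7.15% of all windows. A match is a description of the letters in these windows and not a measure of binding, and these windows may not be the starts used in the kidney.

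After quality control 81391 nuclei remained of 82784 barcodes, with 36548873 to 54500820 UMIs per library. Of these, 75817 fell into 21 classes named from marker genes, and 20 classes were large enough to be tested. No acid-base gene was used for clustering or naming. The class aIC, alpha-intercalated-like, held 1034 nuclei (105 to 158 per library), and bIC, beta-intercalated-like, held 970 (98 to 144 per library). Alpha markers were abundant in aIC, with *Kit* and *Clnk* in the lead, of which *Clnk* is also on the beta list. The 6-gene alpha list was at 3195 to 4278 CPM there (UMI counts scaled to the total of the class and library). This sum counts shared markers too, and its level in bIC is not given here, so that it does not by itself tell aIC from bIC. Beta markers were abundant in bIC, with *Insrr* at 1290 to 1637 CPM. Other classes named below are PCT and PST (proximal convoluted and straight tubule), thinDL (thin descending limb), TAL (thick ascending limb), MD (macula densa), DCT1 and DCT2 (distal convoluted tubule), CNT (connecting tubule), CCD and MCD (principal cells of cortical and medullary collecting duct), Podo (podocytes), Vasc (vascular), MesPer (mesangial cells and pericytes), SMC_JGC (smooth muscle and juxtaglomerular), UT (urothelium), Myel (myeloid), BC (B cells) and TC_NK (T and natural killer cells). Of the 7 clusters of PST, 4 drew over 50% of their nuclei from 1 library, and in the 5 clusters of PCT 1 library gave 24.3% to 49.0%. In the single clusters that form aIC and bIC these shares were 15.3% and 14.8%. In a clustering on 50 principal components, 3 of 5 PCT clusters drew 54.3% to 96.8% from 1 library. *Arntl* UMIs over all nuclei were higher in cKOt (201 to 296 CPM) than in Ctrl (33.1 to 159 CPM). Counts per gene cannot be limited to the deleted exons, so that they do not test the genotype labels. Some barcodes, 823 in number, occurred in more than 1 library.

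The transporters divided the nephron between them. *Slc4a1*, which encodes the basolateral chloride-bicarbonate exchanger of alpha-intercalated cells, was highest in aIC by far among the 20 classes: it reached 479 ± 91.0 CPM there (SD, n = 4 Ctrl mice), 53.8-fold over the next class, Myel. In bIC it was at 2.40 ± 2.94 CPM and in Vasc, which should lack it, at 1.79 ± 0.699 CPM. *Slc4a1* is also a gene of the red cell lineage. The 6 red cell markers summed to 1.81 to 25.2 CPM in aIC per library. An *Slc4a1* UMI was seen in 62.4% of aIC nuclei, 0.619% of bIC nuclei and 0.331% of Vasc nuclei, at median depths of 3733.5, 5222 and 2076 UMIs. With each nucleus thinned to 1000 UMIs, and nuclei with fewer left out, the share in aIC was 26.6%, with 21.0% to 34.5% in the single libraries.

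*Slc26a4* showed the mirror pattern. Its level in bIC was 9816 ± 1502 CPM in Ctrl, 297-fold over UT, and in aIC it was 14.6 ± 6.28 CPM, near that of Vasc (18.6 ± 3.79 CPM), with overlapping ranges. A UMI was present in 99.6% of bIC nuclei and in 4.55% of aIC nuclei, and the latter share was close to that of Vasc, 3.48%. After thinning these shares were 97.5%, 2.14% and 1.72%. UMIs of *Slc4a1* and *Slc26a4* occurred together in 32 of 1034 aIC nuclei (3.09%).

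*Slc4a9* was shared by both intercalated classes. It was highest in bIC (5373 ± 695 CPM in Ctrl) and 3.80-fold lower in aIC (1413 ± 465 CPM), with no overlap between the Ctrl libraries of these classes. All other classes lay at or below 27.6 CPM on average, and Vasc stood at 13.3 ± 2.54 CPM. The aIC level was 51.1-fold over that of the next class. In bIC, 99.9% of nuclei had a UMI, and 965 of 970 had UMIs of both *Slc4a9* and *Slc26a4*. In aIC, 69.4% of nuclei had one, against 2.98% in Vasc, and thinned shares were 97.5%, 50.4% and 1.34% in bIC, aIC and Vasc. *Slc4a1* and *Slc4a9* were found together in 437 of 1034 aIC nuclei (42.3%).

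At the ratio of *Slc4a9* to *Slc26a4* in bIC of the same library, the *Slc26a4* UMIs of aIC would correspond to 4.65 to 48.2 CPM of *Slc4a9* per library. That is 0.297% to 2.09% of the measured aIC level. The calculation rests on *Slc26a4* alone, and the other beta markers found in aIC, given below, were not scaled in this way. The part of bIC RNA in the aIC level was not tested. Within aIC, *Slc4a9* was lower in the nuclei that had a UMI of *Slc26a7*, a chloride-bicarbonate exchanger of acid-secreting cells of the outer medullary collecting duct. In the 8 libraries, 346 to 860 CPM of *Slc4a9* were measured in nuclei with an *Slc26a7* UMI and 991 to 2217 CPM in nuclei without one, and the first value was the lower in every library. The same direction was seen for nuclei with an *Slc4a1* UMI, which held 647 to 1745 CPM of *Slc4a9* against 1170 to 2490 CPM in nuclei without one, and again the first value was the lower in all 8 libraries. In UMIs per nucleus, though, *Slc4a9* was higher with an *Slc4a1* UMI in Ctrl ZT4 replicates 1 (5.30 against 5.14) and 2 (5.57 against 5.50). It was so too in cKOt ZT16 replicate 2 (5.98 against 5.15), and lower in the rest. The share of nuclei with an *Slc4a9* UMI was 67.8% with an *Slc4a1* UMI and 72.2% without. That share was the higher with an *Slc4a1* UMI in Ctrl ZT4 replicate 1, Ctrl ZT16 replicate 1 and cKOt ZT16 replicate 2. An *Slc4a9* UMI was seen in 54.9% of the nuclei with an *Slc26a7* UMI and in 73.1% of those without. Nuclei without an *Slc26a7* UMI may still express it, because detection is limited by depth.

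*Slc4a4* marked the proximal tubule and had a broad low level elsewhere. It stood at 4211 ± 968 CPM in PCT and at 1888 ± 483 CPM in PST, and these ranges did not overlap. PST overlapped BC (1046 ± 370 CPM), a class of 212 nuclei. From TC_NK (460 ± 140 CPM) down to bIC (133 ± 26.1 CPM) each class overlapped its neighbour, and Vasc was at 304 ± 71.8 CPM. aIC and bIC thus had less *Slc4a4* than most other classes. Thinned shares of nuclei with a UMI were 93.2% in PCT, 68.0% in PST, 26.2% in Vasc, 17.2% in aIC and 13.0% in bIC.

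**Figure D1:**
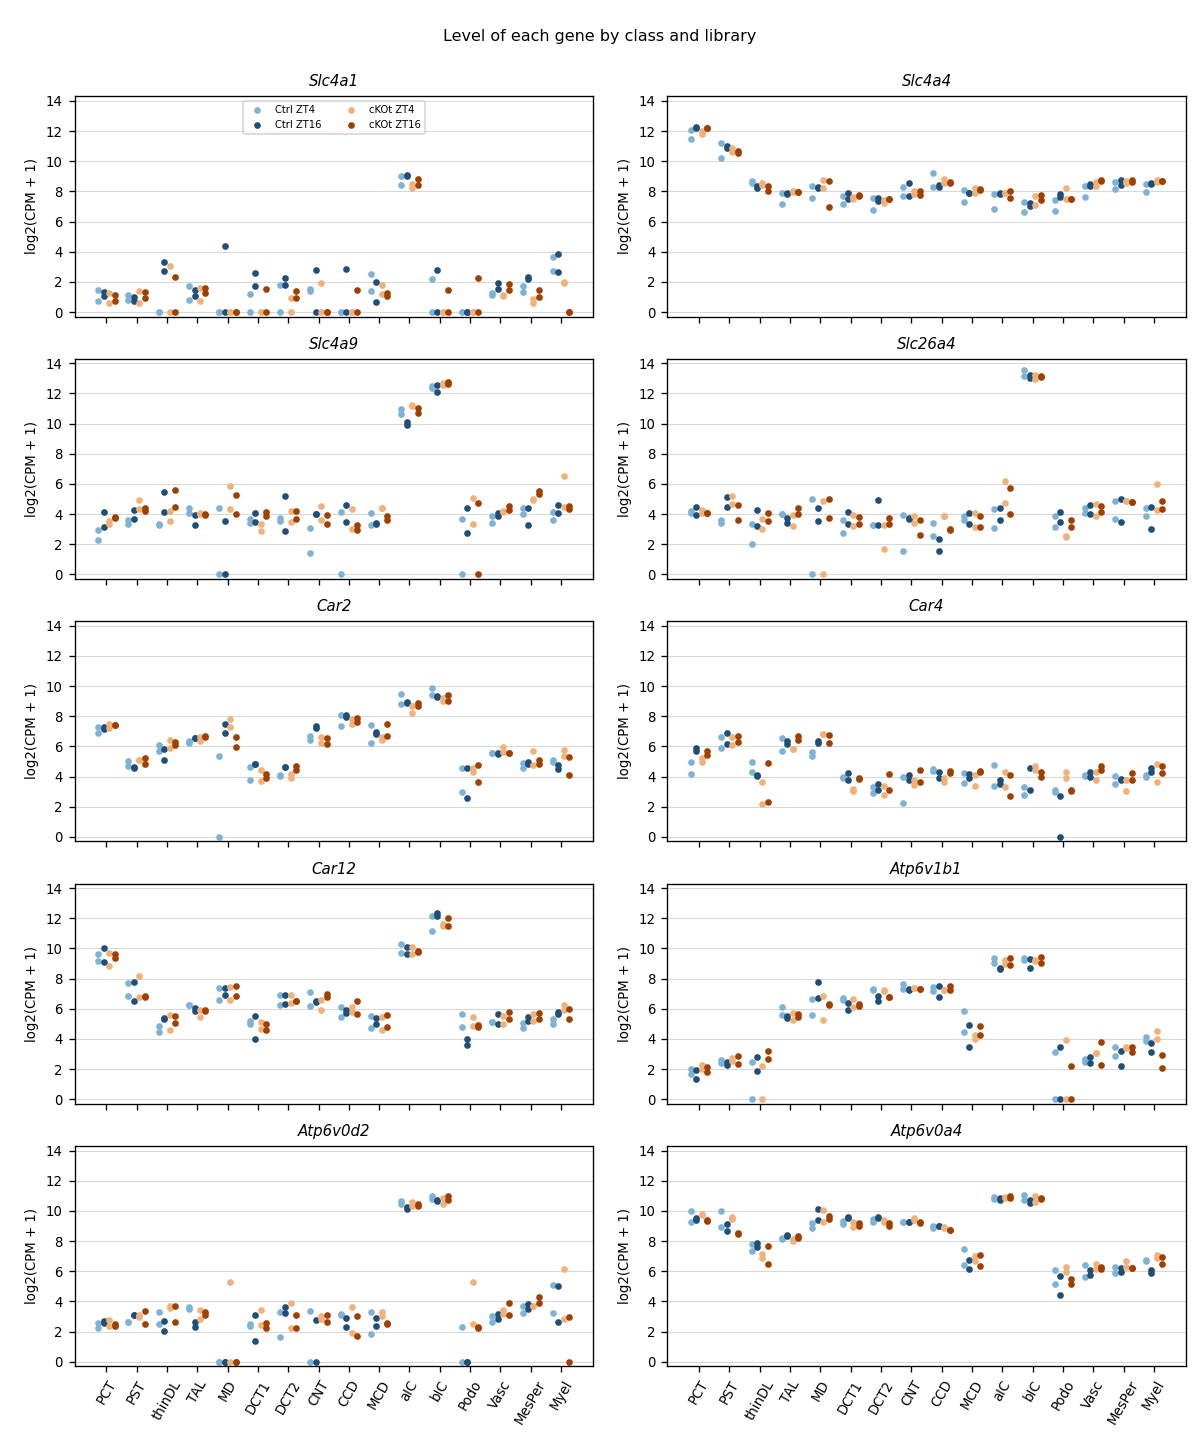
Level of the 10 acid-base genes as log2(CPM + 1), on the vertical axes, in 16 classes along the horizontal axes, with 1 point per library coloured by genotype and time point. *Slc4a1* stands out in aIC, *Slc26a4* in bIC, *Slc4a4* in PCT and PST, and *Slc4a9* and *Atp6v0d2* in both intercalated classes, whereas *Atp6v0a4* is high in most tubule classes.

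Among carbonic anhydrases, *Car2*, the cytosolic enzyme, was highest in the intercalated classes, followed by CCD. It was at 724 ± 148 CPM in bIC and 528 ± 129 CPM in aIC, which overlapped, then at 237 ± 49.9 CPM in CCD, with no overlap to either neighbour in the order. PCT (141 ± 18.2 CPM), CNT (123 ± 36.4 CPM), MCD (119 ± 38.5 CPM) and TAL (85.6 ± 8.37 CPM) overlapped in turn. Vasc had 45.5 ± 0.593 CPM.

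*Car12*, a membrane enzyme with its catalytic site outside the cell, was strongest in bIC at 4180 ± 1296 CPM, 4.19-fold over aIC (997 ± 219 CPM). The spread in bIC was wide, from 2325 to 5342 CPM among Ctrl mice, but every one of these lay above aIC. The aIC level overlapped that of PCT (746 ± 237 CPM), which in turn lay clear of BC (174 ± 88.3 CPM) and PST (158 ± 64.9 CPM). Nuclei with a UMI made up 97.7% of bIC, 76.4% of aIC, 80.9% of PCT and 7.18% of Vasc.

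*Car4*, a membrane-anchored enzyme of the proximal brush border, was sparse in these nuclei. PST (85.0 ± 25.8 CPM), TAL (73.7 ± 17.0 CPM), MD (60.4 ± 19.2 CPM) and PCT (39.2 ± 19.3 CPM) overlapped each other in turn, and aIC (14.6 ± 7.54 CPM) and bIC (11.2 ± 7.56 CPM) were at the level of Vasc (16.4 ± 1.92 CPM). A UMI was seen in 35.2% of PST nuclei, 20.6% of TAL nuclei and 3.27% of Vasc nuclei, and after thinning in 6.67%, 5.90% and 1.46%. Intercalated levels of *Car4* were therefore not distinguishable from that of Vasc at this depth. No level of background was measured, and other classes were lower, down to Podo (5.03 ± 3.46 CPM).

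The 3 V-ATPase subunits differed in how far they extended beyond intercalated cells. *Atp6v0d2*, a subunit of the membrane-embedded V0 sector, was the most restricted: bIC had 1773 ± 206 CPM and aIC 1351 ± 236 CPM, which overlapped, and no other class exceeded 46.6 CPM on average. That value belonged to TC_NK, where single libraries ranged from 6.66 to 152 CPM. In the other tubule classes the means were 3.86 to 7.78 CPM, apart from MD, where no UMI was counted in Ctrl, and Vasc stood at 6.63 ± 1.29 CPM.

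*Atp6v1b1*, the B1 subunit of the cytosolic V1 sector, extended into the distal nephron. It stood at 572 ± 101 CPM in bIC and 501 ± 128 CPM in aIC, which overlapped, and then at 165 ± 20.6 CPM in CNT, 152 ± 31.9 CPM in CCD and 129 ± 31.3 CPM in DCT2. From CNT to DCT1 (85.6 ± 19.2 CPM) neighbours overlapped, and PCT held 2.44 ± 0.717 CPM, below Vasc (5.06 ± 0.821 CPM). After thinning, 36.1% of aIC, 35.6% of bIC, 13.2% of CCD and 0.549% of Vasc nuclei had a UMI.

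*Atp6v0a4*, the a4 subunit of the V0 sector, was the broadest. aIC (1821 ± 111 CPM) and bIC (1749 ± 253 CPM) overlapped and lay above all other classes, but PCT (769 ± 182 CPM), MD (713 ± 281 CPM), DCT2 (702 ± 73.9 CPM), DCT1 (678 ± 104 CPM), CNT (618 ± 8.80 CPM) and PST (613 ± 269 CPM) formed a second tier in which neighbours overlapped. CCD was at 501 CPM, within the spread of PST, so that this tier had no clear lower edge. Vasc had 63.0 ± 16.7 CPM. In PCT, 84.8% of nuclei had a UMI, against 11.8% in Vasc.

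**Figure D2:**
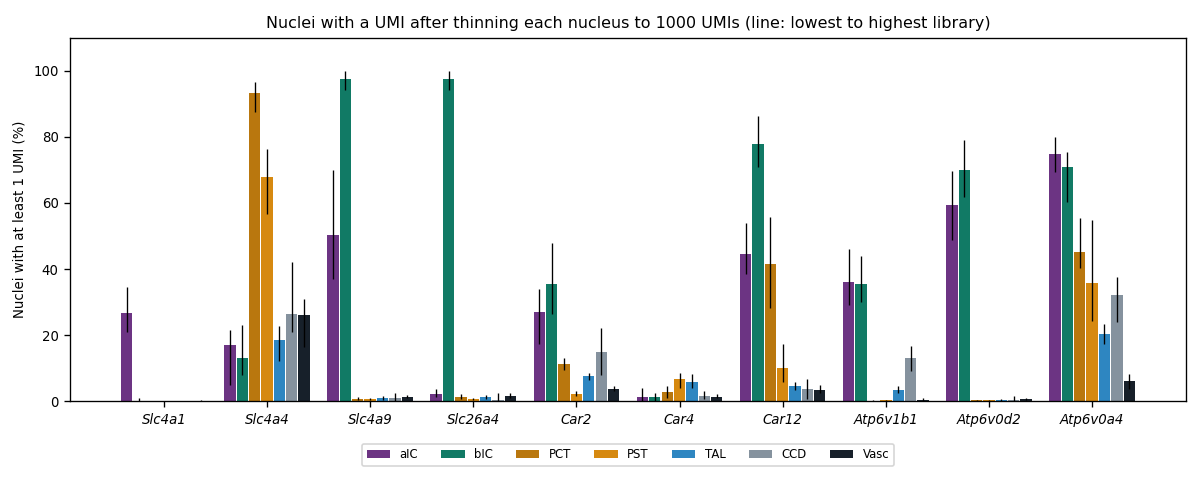
Share of nuclei with at least 1 UMI of each gene, in percent on the vertical axis, after thinning each nucleus to 1000 UMIs and leaving out nuclei with fewer. Bars give all nuclei kept of a class, in 7 classes, and black lines the lowest to highest of the 8 libraries. *Slc4a9* and *Slc26a4* reach 97.5% in bIC, and *Slc4a1* reaches 26.6% in aIC and stays under 1% in the 6 others.

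Profiles over classes were also compared with those of all other mRNAs, by Pearson's r of log2(CPM + 1) over 80 class-library values of the 4 Ctrl mice, among 11875 mRNAs. Points of 1 library share its depth, so that r is a description. The genes most like *Slc4a1* were *Dmrt2* (r = 0.85) and *Pga5* (0.78), and those most like *Slc4a4* were *Slc34a1* (0.92), the sodium-phosphate cotransporter of the proximal tubule, and *Kcnj15* (0.92). *Slc4a9* was closest to *Insrr* (0.84) and *Foxi1* (0.83), a forkhead factor of intercalated cells, and *Slc26a4* to *Tldc2* (0.82) and *Hmx2* (0.81). *Dmrt2*, *Insrr*, *Foxi1* and *Hmx2* were among the markers that named the classes. *Car12* was closest to *Dmxl1* (0.86) and *Ncoa7* (0.80), *Car2* to *Mindy1* (0.71) and *Atp6v0c* (0.70), and *Car4* to *Slc15a2* (0.64) and *Ugt8a* (0.63). For the pump subunits, those reported here were *Tmem117* (0.90) for *Atp6v1b1*, *Rorb* (0.87) and *Insrr* (0.83) for *Atp6v0d2*, and *Esrrg* (0.90) and *Mthfd1* (0.89) for *Atp6v0a4*.

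The levels of most acid-base genes did not pass the test for a change with genotype or time of day in any class, and *Slc4a9* in aIC was the exception. Summed UMI counts of each class were compared by the quasi-likelihood test of edgeR, with all 4 groups in a single model, with Benjamini-Hochberg adjustment over all mRNAs tested in a class and a threshold of 0.05. Between genotypes at ZT4, 0 of 141 gene-class pairs of the 10 genes were called, while 0.277% of all gene-class pairs were, and DESeq2 called 2 (0.407% of all pairs). An unadjusted p under 0.05 was found for 25 of these pairs (17.7%), against 6.10% of all pairs. At ZT16, 1 of 142 pairs was called (background 0.161%), and 14 had an unadjusted p under 0.05 (9.86%, against 5.52% of all). Over both time points 1 of 151 pairs was called (background 0.516%), and 26 had an unadjusted p under 0.05 (17.2%, against 6.74%). Between ZT16 and ZT4, 1 of 148 pairs was called in Ctrl (background 0.349%), and 24 had an unadjusted p under 0.05 (16.2%, against 8.28%). In cKOt 0 of 143 were called by edgeR (background 0.158%) and 0 by DESeq2 (0.244% of all pairs), and 11 had an unadjusted p under 0.05 (7.69%, against 7.22%). The interaction of genotype and time gave 0 of 151 calls (background 0.0246%), 16 pairs with an unadjusted p under 0.05 (10.6%, against 4.40%), and 1 call with DESeq2 (0.0533% of all pairs). Pairs of the same gene in several classes share their libraries. With all nuclei of a library summed, edgeR and DESeq2 each called 0 of 60 gene-contrast pairs (background 0.289%). An unadjusted p under 0.05 was found for 9 of these, with no share of all mRNAs set beside it. The median log2 fold change of the pairs was 0.09 at ZT4, 0.06 at ZT16 and 0.06 over both time points for genotype, while that of all gene-class pairs was close to 0 in each case.

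*Slc4a9* in aIC measured 1996 and 1568 CPM in the Ctrl mice at ZT4 and 1121 and 966 CPM in those at ZT16. The values in cKOt mice were 2306 and 2460 CPM (ZT4) and 2077 and 1644 CPM (ZT16). Both Ctrl libraries of ZT16 were the lowest of the 8, and at each time point both cKOt libraries lay above both Ctrl libraries. In Ctrl it fell by 0.77 on the log2 scale from ZT4 to ZT16 (SE 0.17, edgeR adjusted p = 0.0274), where 0.226% of the 8831 mRNAs tested in aIC were called. The cKOt against Ctrl difference at ZT16 was a log2 fold change of 0.83 (SE 0.17, edgeR adjusted p = 0.0110), a 1.78-fold higher level, with 0.232% of 9047 mRNAs called. Over both time points it was 0.63 (SE 0.12, edgeR adjusted p = 0.00173), or 1.54-fold, with 0.78% of 9354 mRNAs called.

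The other comparisons of *Slc4a9* in aIC did not pass. At ZT4 the genotype difference was 0.42 (SE 0.17, edgeR adjusted p = 0.566), and in cKOt the change from ZT4 to ZT16 was -0.36 (SE 0.17, edgeR adjusted p = 0.855). The interaction was 0.41 (SE 0.24, edgeR adjusted p = 1.00), so that the time effect was not shown to differ between genotypes. In 5 of the 8 fits that each left out 1 library the time effect in Ctrl was no longer called, with an adjusted p of 0.779 without Ctrl ZT4 replicate 1, 0.238 without Ctrl ZT16 replicate 2, 0.0694 without Ctrl ZT16 replicate 1, and 0.0553 and 0.0536 without cKOt ZT4 replicates 1 and 2. The genotype call at ZT16 was lost without Ctrl ZT16 replicate 2 (0.114) or cKOt ZT16 replicate 1 (0.315). The call over both time points was kept under all 15 alternatives, with log2 fold changes of 0.53 to 0.73.

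The share of aIC nuclei with an *Slc4a9* UMI moved the same way. Thinned to 1000 UMIs, 55.5% and 48.0% of nuclei had one in Ctrl at ZT4, 38.7% and 37.0% in Ctrl at ZT16, 70.0% and 59.1% in cKOt at ZT4 and 56.2% and 47.1% in cKOt at ZT16. Beta markers not shared with the alpha list were, like *Slc4a9*, higher in cKOt at both time points. In Ctrl, however, they rose from ZT4 to ZT16, where *Slc4a9* fell. *Hmx2*, *Insrr* and *Avpr1a* together were at 69.3 to 85.1 CPM in aIC of Ctrl at ZT4, 159 to 202 CPM in Ctrl at ZT16, 216 to 263 CPM in cKOt at ZT4 and 216 to 249 CPM in cKOt at ZT16. *Hmx2* itself was at 0 to 21.5 CPM in aIC, against 472 to 803 CPM in bIC. Their part in the *Slc4a9* result was not tested. The alpha markers *Aqp6* (593 to 852 CPM in Ctrl, 326 to 540 CPM in cKOt) and *Clnk*, which is on both lists (1188 to 1563 CPM in Ctrl, 889 to 1097 CPM in cKOt) were lower in aIC of cKOt with no overlap. The other alpha markers are not given by genotype here, so that *Aqp6* and *Clnk* do not stand for the alpha list. No share of all mRNAs that separated the genotypes in this way was set beside them. In the comparisons called for *Slc4a9* in aIC, *Slc26a7* moved the opposite way in that class, as given below. Its part in the *Slc4a9* result was not tested. The share of aIC among all nuclei was 1.08% to 1.48% per library.

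In bIC, *Slc4a9* measured 5237 and 5651 CPM in Ctrl at ZT4, 6121 and 4481 CPM in Ctrl at ZT16, 6176 and 6770 CPM in cKOt at ZT4 and 6899 and 6290 CPM in cKOt at ZT16. All cKOt libraries lay above all Ctrl libraries, though the lowest cKOt value was close to the highest Ctrl value. The log2 fold change over both time points was 0.28 (SE 0.12, edgeR adjusted p = 0.626), which did not pass the test. Whether the genotype effect differed between aIC and bIC was not tested.

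**Figure D3:**
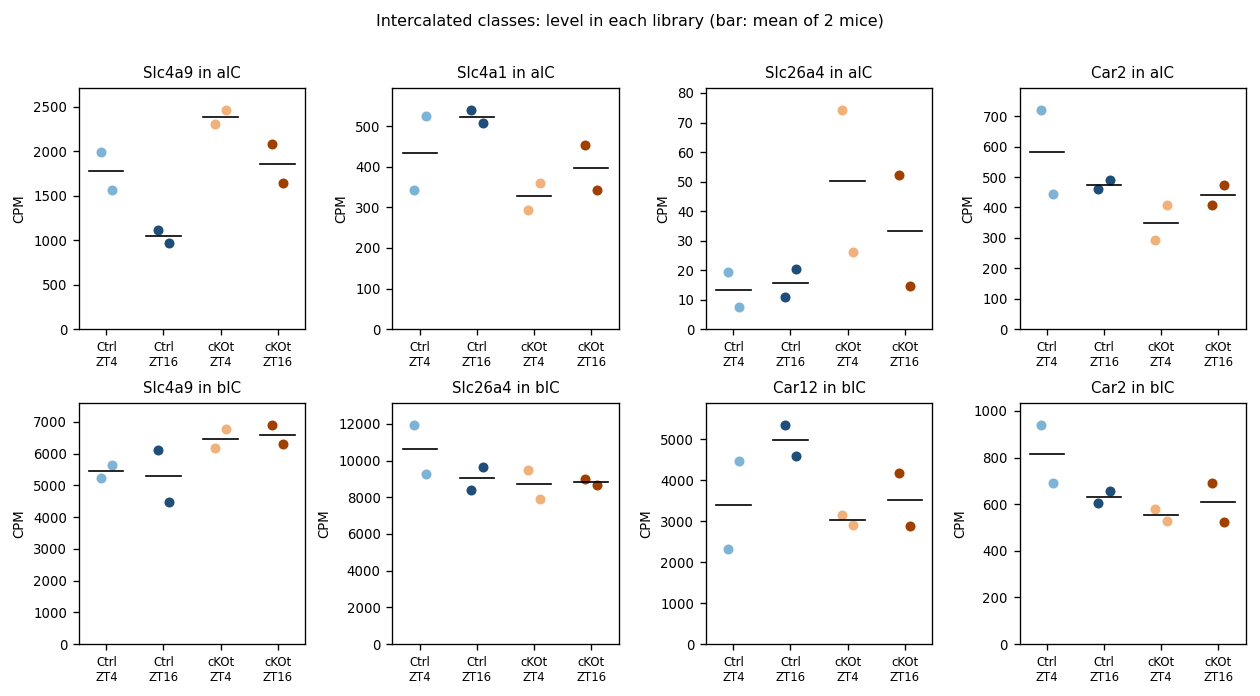
Level in each library, in CPM on the vertical axes, of 4 genes in aIC (upper row) and 4 in bIC (lower row), by genotype and time point; points are mice and bars the mean of 2. For *Slc4a9* in aIC both Ctrl mice at ZT16 lie lowest, at 966 and 1121 CPM, and cKOt mice lie above Ctrl mice at both time points.

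With all libraries and the filter on low counts edgeR called no change of *Slc26a4*, and the calls by DESeq2 were in PST, where its level was low. Its bIC levels in Ctrl were 11928 and 9275 CPM (ZT4) and 8407 and 9653 CPM (ZT16). In cKOt they were 9501 and 7926 CPM (ZT4) and 8982 and 8674 CPM (ZT16), so that the genotypes overlapped at both time points. The genotype difference over both time points was -0.16 (SE 0.11, edgeR adjusted p = 0.906). The share of aIC nuclei with an *Slc26a4* UMI overlapped between genotypes, at 2.70% to 5.47% in Ctrl and 4.43% to 6.25% in cKOt. In aIC the few *Slc26a4* UMIs, 89 over the 8 libraries, gave 7.64 to 20.5 CPM in Ctrl and 14.8 to 74.1 CPM in cKOt, a log2 fold change of 1.53 that did not pass (SE 0.43, edgeR adjusted p = 0.103). It did pass without the filter on low counts (1.53, adjusted p = 0.00827), without Ctrl ZT16 replicate 2 (1.77, adjusted p = 0.0494), without cKOt ZT4 replicate 2 (1.82, adjusted p = 0.0494) and without cKOt ZT16 replicate 2 (1.88, adjusted p = 0.00746).

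*Slc4a1* in aIC stood at 343 and 525 CPM in Ctrl at ZT4, 539 and 507 CPM in Ctrl at ZT16, 293 and 360 CPM in cKOt at ZT4 and 452 and 343 CPM in cKOt at ZT16. Genotypes overlapped at ZT4 and did not at ZT16, where both cKOt mice were lower. The difference over both time points was -0.41 (SE 0.14, edgeR adjusted p = 0.30).

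Of the carbonic anhydrases, *Car2* in aIC ranged from 443 to 719 CPM in Ctrl and from 293 to 475 CPM in cKOt. The genotype difference was -0.71 at ZT4 (SE 0.21, edgeR adjusted p = 0.205) and -0.10 at ZT16 (SE 0.20). The first passed without Ctrl ZT4 replicate 2 (-1.03, edgeR adjusted p = 0.0415). In bIC the *Car2* values were -0.56 at ZT4 (SE 0.20, edgeR adjusted p = 0.617) and -0.05 at ZT16 (SE 0.19). In CNT, *Car2* was at 147 and 160 CPM in Ctrl at ZT16 and at 93.3 and 71.0 CPM in cKOt at ZT16, a difference of -0.89 that came close to the threshold (SE 0.23, edgeR adjusted p = 0.0735). It passed with the replicate block (edgeR adjusted p = 0.0491) and without doublets (edgeR adjusted p = 0.0329). *Car12* in bIC measured 2325 and 4459 CPM in Ctrl at ZT4, 5342 and 4593 CPM in Ctrl at ZT16, 3139 and 2898 CPM in cKOt at ZT4 and 4177 and 2873 CPM in cKOt at ZT16. The 2 Ctrl mice at ZT4 spanned most of that range, and the genotype difference at ZT16 was -0.49 (SE 0.22, edgeR adjusted p = 0.908). *Car4* in PCT was at 30.6 and 16.6 CPM in Ctrl at ZT4 and at 50.3 and 59.4 CPM in Ctrl at ZT16, with no overlap, and its log2 fold change of 1.21 did not pass with edgeR (SE 0.26, adjusted p = 0.0830) but did with DESeq2 (adjusted p = 0.00324).

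No difference of the V-ATPase subunits in intercalated classes passed the test. *Atp6v0a4* in aIC stayed between 1716 and 2003 CPM in all 8 mice, and its difference between genotypes over both time points was 0.06 (SE 0.11), with 0.04 (SE 0.13) in bIC. *Atp6v0d2* gave 0.05 (SE 0.12) in aIC and -0.03 (SE 0.13) in bIC, averages of opposite signs. In aIC its genotype difference was -0.13 at ZT4 (SE 0.16) and 0.23 at ZT16 (SE 0.16), and in bIC -0.24 (SE 0.18) and 0.19 (SE 0.18). The time difference of *Atp6v0d2* in aIC of Ctrl was -0.38 (SE 0.16, edgeR adjusted p = 0.723). *Atp6v1b1* in aIC measured 674 and 519 CPM in Ctrl at ZT4, 416 and 394 CPM in Ctrl at ZT16, 498 and 596 CPM in cKOt at ZT4 and 649 and 484 CPM in cKOt at ZT16. The Ctrl mice at ZT16 were the lowest, as for *Slc4a9*, but the time difference in Ctrl of -0.55 did not pass (SE 0.19, edgeR adjusted p = 0.496). Nor did the genotype difference of *Atp6v1b1* in aIC at ZT16, 0.48 (SE 0.19, edgeR adjusted p = 0.637). In PST, *Atp6v0a4* was at 777 and 712 CPM in cKOt at ZT4 and at 366 and 354 CPM in cKOt at ZT16, a difference of -1.05 that did not pass (SE 0.31, edgeR adjusted p = 0.550), and the Ctrl mice at ZT4 alone spanned 493 to 1006 CPM.

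Some low-level pairs lay nearer the threshold than most. *Atp6v0d2* in TAL was at 10.5 and 11.5 CPM in Ctrl at ZT4 and at 5.08 and 4.03 CPM in Ctrl at ZT16, a log2 fold change of -1.26 (SE 0.32, edgeR adjusted p = 0.0816), and Vasc held 6.63 ± 1.29 CPM. *Car4* in TAL was at 55.2 and 54.9 CPM in cKOt at ZT4 and at 101 and 85.1 CPM in cKOt at ZT16, a log2 fold change of 0.76 (SE 0.21, edgeR adjusted p = 0.159). It passed without Ctrl ZT4 replicate 1 (edgeR adjusted p = 0.0320) or 2 (edgeR adjusted p = 0.0365). *Slc4a9* in PST was at 9.01 and 11.5 CPM in Ctrl at ZT4 and at 19.5 and 30.4 CPM in cKOt at ZT4, a log2 fold change of 1.28 (SE 0.29, edgeR adjusted p = 0.125). *Slc26a4* in PST went from 9.48 and 11.3 CPM in Ctrl at ZT4 to 24.7 and 35.7 CPM in cKOt at ZT4 (log2 fold change 1.54, SE 0.36, edgeR adjusted p = 0.148). At ZT16 the direction was the opposite, with 21.7 and 34.1 CPM in Ctrl and 23.6 and 11.4 CPM in cKOt (-0.65, SE 0.35, edgeR adjusted p = 0.744). In Ctrl the change of *Slc26a4* in PST from ZT4 to ZT16 was 1.41 (SE 0.36, edgeR adjusted p = 0.252; DESeq2 adjusted p = 0.0104), and the interaction was -2.19 (SE 0.50, edgeR adjusted p = 0.807; DESeq2 adjusted p = 0.0115). For *Slc4a9* in PST the difference at ZT16 was 0.29 (SE 0.28, edgeR adjusted p = 0.942). Over both time points it was 0.78 (SE 0.20, edgeR adjusted p = 0.116; DESeq2 adjusted p = 0.0210). *Slc4a9* in MesPer had a log2 fold change of 1.14 over both time points (SE 0.22, edgeR adjusted p = 0.117), and of 1.53 without Ctrl ZT16 replicate 1 (edgeR adjusted p = 0.0339). These 3 differences, *Slc4a9* and *Slc26a4* in PST at ZT4 and *Slc4a9* in MesPer, were also called by DESeq2. The beta markers, 6 of 6 with UMIs, were at 8.29 to 8.31 CPM in PST of Ctrl at ZT4 and at 15.4 to 19.8 CPM in PST of cKOt at ZT4, and thus moved with both genes. Their part in these values was not tested. In Vasc, *Slc4a9* stood at 9.70 to 15.7 CPM in Ctrl and 16.4 to 22.8 CPM in cKOt.

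**Figure D4:**
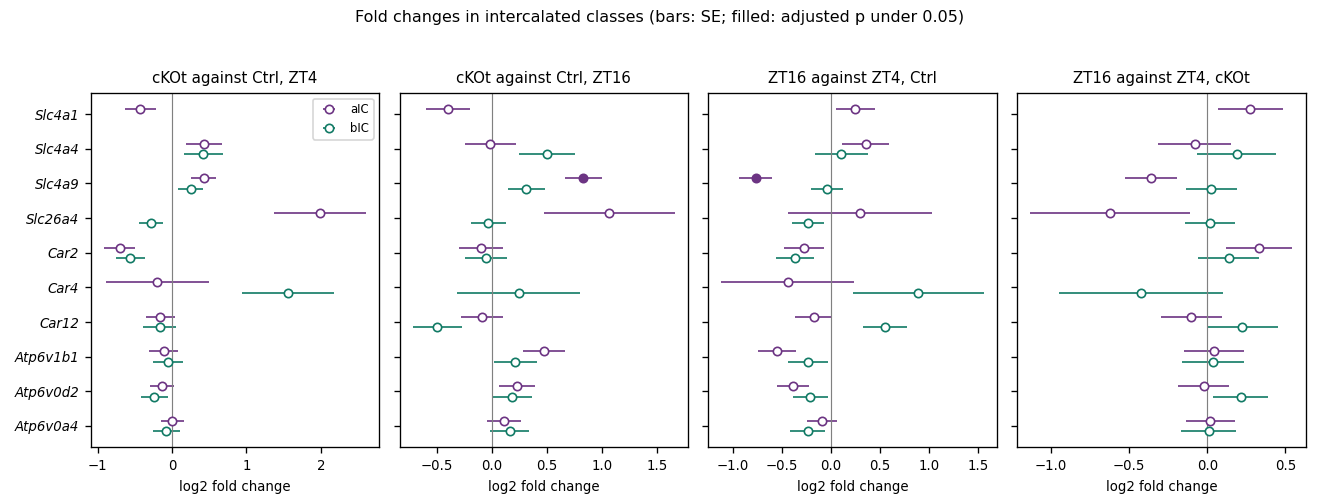
Log2 fold changes (horizontal axes) of the 10 genes in aIC and bIC for 4 comparisons, with bars of 1 SE derived from the edgeR F statistic. Points are filled where the edgeR adjusted p is under 0.05. *Slc4a9* in aIC is filled for cKOt against Ctrl at ZT16 (0.83) and for ZT16 against ZT4 in Ctrl (-0.77), and in no other case is a point filled.

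A wider list of 55 acid-base genes put these values into context. It held 20 further V-ATPase subunits, 11 bicarbonate transporters, 11 carbonic anhydrases, 6 proton pumps and exchangers and 7 genes of ammonia handling. Between genotypes, 1 of 693 gene-class pairs was called at ZT4 (higher in cKOt), 2 of 703 at ZT16 (both lower) and 4 of 728 over both time points (2 higher, 2 lower). These were 0.144%, 0.284% and 0.549% of the pairs, against 0.277%, 0.161% and 0.516% of all gene-class pairs. DESeq2 called more of them, 6 at ZT4 (0.866%, against 0.407% of all pairs), 3 at ZT16 (0.427%, against 0.241%) and 6 over both time points (0.824%, against 0.603%). Between ZT16 and ZT4, 6 of 705 pairs were called in Ctrl (5 higher at ZT16, 1 lower) and 2 of 689 in cKOt (1 higher, 1 lower), which were 0.851% and 0.290% of the pairs, against 0.349% and 0.158% of all pairs. With DESeq2 these counts were 8 (1.13%, against 0.462%) and 1 (0.145%, against 0.244%). The interaction gave 0 of 728 with edgeR, against 0.0246% of all pairs, and 2 calls by DESeq2 (0.275%, against 0.0533%). Of these pairs, 44 had an unadjusted edgeR p under 0.05 (6.04%, against 4.40% of all pairs). Of the 20 V-ATPase subunits, edgeR and DESeq2 each called 0 of 2054 gene-class-contrast pairs, against 0.248% (edgeR) and 0.335% (DESeq2) of all pairs over the 6 contrasts, and 82 had an unadjusted edgeR p under 0.05 (3.99%, against 6.36% of all pairs). Of the 6 proton pumps and exchangers each tool called 0 of 457, against the same shares of all pairs, and 41 had an unadjusted p under 0.05 (8.97%).

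*Slc26a7* in aIC had the smallest adjusted p-values of the list. It measured 237 and 275 CPM in Ctrl at ZT4, 599 and 574 CPM in Ctrl at ZT16, 94.9 and 166 CPM in cKOt at ZT4 and 133 and 99.7 CPM in cKOt at ZT16. Every cKOt library lay below every Ctrl library, and in Ctrl the level was higher at ZT16. Over both time points it fell by 1.66 in cKOt (log2 scale, SE 0.16, edgeR adjusted p = 7.05e-09) and at ZT16 by 2.35 (SE 0.22, edgeR adjusted p = 4.56e-09), and in Ctrl it rose by 1.18 from ZT4 to ZT16 (SE 0.21, edgeR adjusted p = 0.00146). The time call was lost without Ctrl ZT4 replicate 1 (adjusted p = 0.0902), and both genotype calls were kept under all 15 alternatives. Thinned shares of aIC nuclei with a UMI were 9.46% to 23.3% in Ctrl and 5.45% to 7.62% in cKOt. Whether fewer nuclei expressed *Slc26a7* or each held less of it cannot be told apart.

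*Car5b*, a mitochondrial carbonic anhydrase, changed in the proximal tubule. In PCT it was at 18.9 and 19.9 CPM in Ctrl at ZT4, 59.9 and 42.1 CPM in Ctrl at ZT16, 198 and 112 CPM in cKOt at ZT4 and 98.9 and 96.8 CPM in cKOt at ZT16. All cKOt libraries lay above all Ctrl libraries. The log2 fold change was 3.0 at ZT4 (SE 0.28, edgeR adjusted p = 0.00134) and 1.96 over both time points (SE 0.19, edgeR adjusted p = 0.000873), and in PST it was 1.31 over both time points (SE 0.22, edgeR adjusted p = 0.0209). Both PCT calls were kept under all 15 alternatives, the clustering on 50 principal components included. The PST call was lost without either Ctrl library or either cKOt library of ZT16, with adjusted p-values of 0.0589 to 0.0836. *Car14*, a membrane-bound carbonic anhydrase, fell by 1.04 in PST of cKOt over both time points (SE 0.14, edgeR adjusted p = 0.00833). This call was kept under 14 of 15 alternatives. It was lost with the clustering in 50 principal components, where PST held 4667 nuclei instead of 12894 (-1.38, edgeR adjusted p = 0.520). At ZT16 it fell by 1.33 (SE 0.21, edgeR adjusted p = 0.0335), from 16.9 and 16.0 CPM to 6.81 and 6.23 CPM, a call lost under 7 of 15 alternatives. These were the fits without any single Ctrl library and without either cKOt library of ZT16 (adjusted p = 0.0728 to 0.314), and the clustering in 50 principal components (0.974), under which the log2 fold change was -0.67.

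Calls between time points lay in TAL, CNT, DCT2 and Vasc, besides *Slc26a7* in aIC. *Slc4a11* in TAL was at 32.3 and 35.3 CPM in Ctrl at ZT4 and at 12.1 and 11.4 CPM in Ctrl at ZT16, and it fell by 1.52 in Ctrl (SE 0.22, edgeR adjusted p = 0.00252) and by 1.48 in cKOt (SE 0.24, edgeR adjusted p = 0.0112). The cKOt call was lost without cKOt ZT4 replicate 2 (0.181) or either cKOt library of ZT16 (0.163 and 0.118). *Pck1*, the gluconeogenic enzyme that follows ammonia formation from glutamine, was higher at ZT16 in Ctrl in TAL (log2 fold change 1.01, SE 0.16), CNT (1.09, SE 0.23), DCT2 (1.16, SE 0.25) and Vasc (0.85, SE 0.15), with edgeR adjusted p-values from 0.00529 to 0.0242. Vasc held 97.3 to 208 CPM of it and TAL 66.0 to 176 CPM, while the level in Ctrl was 505 ± 175 CPM in PCT and 795 ± 309 CPM in PST. In those proximal classes the time difference of *Pck1* in Ctrl was 0.79 (SE 0.21, edgeR adjusted p = 0.163) and 0.88 (SE 0.24, edgeR adjusted p = 0.295). The part of proximal RNA in the calls was not tested. The TAL call was lost without Ctrl ZT4 replicate 1 (adjusted p = 0.0728), and the CNT call without that library (0.258), without Ctrl ZT16 replicate 1 (0.178) or 2 (0.159), and with DESeq2 (0.222). The calls in DCT2 and Vasc, named after their values were seen, were each lost under 4 of 15 alternatives. In DCT2 these were the fits without Ctrl ZT4 replicate 1 (0.410), without Ctrl ZT16 replicate 1 (0.0882) or 2 (0.141), and with DESeq2 (0.129), and in Vasc those without any single Ctrl library (0.0535 to 0.242). *Rhbg*, a basolateral ammonia transporter, rose by 1.02 from ZT4 to ZT16 in CNT of cKOt (SE 0.22, edgeR adjusted p = 0.0131), from 97.7 and 124 CPM to 228 and 226 CPM, while Ctrl mice at ZT16 had 299.9 and 185 CPM. This call was lost without any single cKOt library (adjusted p = 0.0853 to 0.195) and with DESeq2 (0.190).

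**Figure D5:**
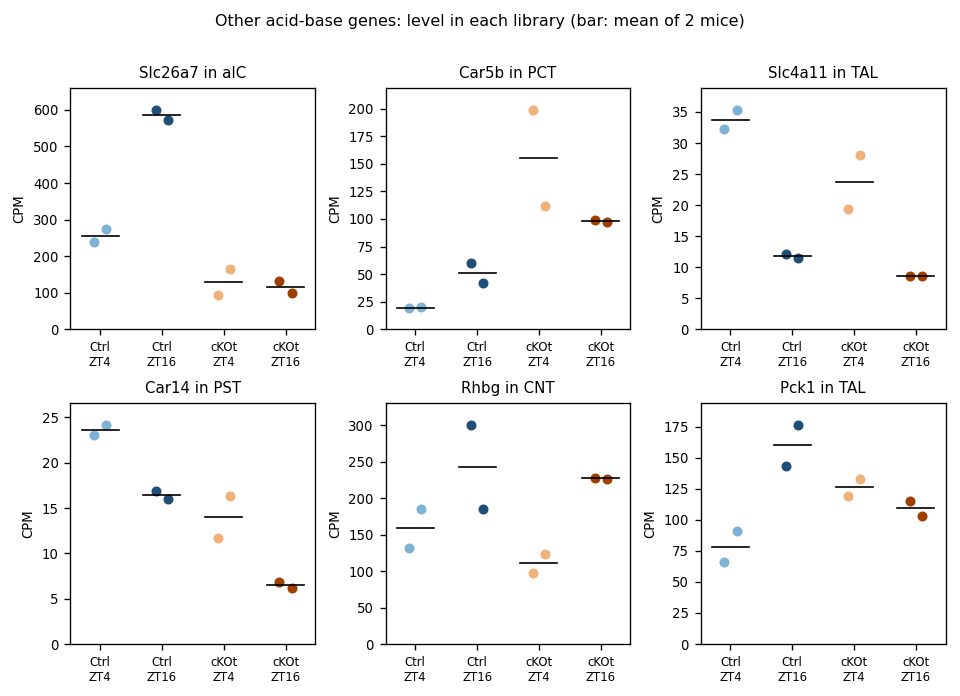
Level in each library, in CPM on the vertical axes, of 6 called genes of the wider acid-base list, each in a class where it was called, by genotype and time point; points are mice and bars the mean of 2. *Slc26a7* in aIC is lowest in the cKOt mice (94.9 to 166 CPM), and *Car5b* in PCT is highest in them (96.8 to 198 CPM).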

How the data were processed

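Nuclei from frozen kidneys of 8 mice were sorted by DAPI and profiled with 10x Genomics Chromium 3' v3.1 chemistry. The authors deposited whole-number UMI counts per gene and barcode for each library, made with bcl2fastq 2.20 and Cell Ranger 7.1.0. Per the labels the build is GRCm39, while the study's methods also name an mm10 reference for these libraries. How introns and strand were handled is not stated in these sources, so reads of overlapping genes cannot be told apart. No coordinates of the counted features were used.

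Barcodes under 500 genes or 800 UMIs, or with over 2% mitochondrial UMIs, were removed. Clustering used 2000 variable protein-coding genes without acid-base genes, 1000 principal components, 20 neighbours and resolution 2.2 (Seurat 5.3.0). Doublets were called with Scrublet (scanpy 1.11.5) at an expected 8% and kept, and a clustering in 50 components was an alternative. Clusters were named from fixed marker lists (20 nuclei or more, under 50% doublets, a mean marker z-score from 0.9 up, and 3 or more markers raised 2-fold and present in 10% of nuclei), by limits set after the clusters were seen. PST includes clusters with weak scores on its markers. Counts were summed per class and library for classes with at least 10 nuclei in every library. edgeR 4.0.16 (quasi-likelihood, TMM, R 4.3.3) was fitted to all 8 libraries over mRNAs that had 5 or more counts in each replicate of some compared group, and DESeq2 1.42.0 was an alternative. The SE of a log2 fold change is its absolute value divided by the square root of the edgeR F statistic. CPM is the class's count relative to its mRNA UMIs, scaled by TMM, and unscaled for marker genes. Values by *Slc26a7* or *Slc4a1* UMI are also unscaled and on a lower scale, and cannot be set beside class levels. In cKOt ZT4 replicate 2, those by *Slc26a7* UMI were 860 and 2217 CPM, both under the class value of 2460 CPM. Self-tests on simulated counts were run. The 10 genes, the 55-gene list, the classes' markers and the tests were chosen with earlier results of these data known. Other genes named are called genes of that list, at most the 4 smallest p per contrast (*Pck1* in DCT2 and Vasc was named after its values were seen), and the 2 most alike mRNAs, apart from items not reported here. *Arntl* and markers were also named. Replicates are separate mice, and their number, 2 per group, limits precision. Pooled shares of nuclei carry counting error, and library ranges are given beside the main ones. UMIs of overlapping or near-identical genes were not separated further. Alternatives were no filter, a filter of 20 counts, DESeq2 size factors, the replicate block, each library left out, nuclei without doublets, the other clustering and DESeq2.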

Additional observations from a re-analysis of the deposited data

How the results depend on the processing

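The number of gene-class pairs called among the 10 genes depended mainly on the filter and the tool. Without a filter on low counts it was 4 for genotype at ZT4 (0 as reported), 2 at ZT16 (1), 5 over both time points (1), 7 for time in Ctrl (1) and 2 for time in cKOt (0), while 0.546%, 0.396%, 0.796%, 0.80% and 0.575% of all gene-class pairs were called. DESeq2 gave 2 for genotype at ZT4, 3 over both time points, 3 for time in Ctrl and 1 for the interaction (*Slc26a4* in PST; 0 as reported), with 0.407%, 0.603%, 0.462% and 0.0533% of all pairs called. Without doublets the count at ZT16 was 2. With the replicate block it was 2 at ZT16, and in the other comparisons the block left the count as it was. The replicate numbers are not known to pair mice, and over all nuclei the correlation of same-numbered deviations ran from -0.33 to 0.55. It was highest between genotypes of the same time point, 0.55 at ZT4 and 0.50 at ZT16. The block joined equal numbers over all groups, so that it did not model a pairing within a time point. Leaving out each library in turn gave 0 to 1 for genotype at ZT4, 0 to 1 at ZT16, 1 to 2 over both time points, 0 to 1 for time in Ctrl and 0 to 1 for time in cKOt. No share of all pairs was set beside the counts without doublets, with the block or with a library left out. Those counts can thus not be read against a general rate. With all nuclei summed, the count stayed at 0 under all alternatives. Of 270 values of the 18 gene-class results called by edgeR among the 10 genes and the wider list, 229 kept their direction and call under these alternatives, 41 kept the direction and lost the call, and 0 reversed. In aIC and bIC, 98 to 158 nuclei per library limited the depth.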

Other observations

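Further genes of the wider acid-base list were measured in aIC of Ctrl mice without passing a test between groups in any class. *Rhcg*, an ammonia transporter of the collecting duct, stood at 934 ± 137 CPM (SD, n = 4). Among V-ATPase subunits, *Atp6v1c2* was at 999 ± 144 CPM, *Atp6v1g3* at 827 ± 60.1 CPM, *Atp6v1a* at 675 ± 84.4 CPM and *Atp6v1h* at 623 ± 23.4 CPM, while *Atp6v1g2* was at 7.39 ± 2.90 CPM and *Atp6v0e2* at 2.70 ± 2.70 CPM. The ratio of aIC to bIC nuclei ran from 0.836 to 1.35 over the 8 libraries.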
